A study of Homo sapiens with 6 samples.

Results

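The genes described here are 32 genes of protein folding and quality control in the endoplasmic reticulum (ER) and of the unfolded protein response. The members are given by a list of gene symbols, with no threshold on their values. They fall into 15 chaperones and oxidoreductases, 9 ER degradation genes, 4 sensors and transcription factors (the 3 sensors and XBP1), and 4 targets of the PERK branch. On the array, 31 of the 32 had a probe set of their own, out of 18417 gene symbols with one in all. PDIA3 was represented only by 2 probe sets shared with its pseudogene PDIA3P1 and was left out of the counts.

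The 3 VRTN arrays came from HEK293T cells that received pNTAP-2×flag-VRTN, a plasmid with the complete pig VRTN coding sequence. The 3 empty vector arrays came from HEK293T cells given the pNTAP-2×flag plasmid without an insert. Both groups therefore went through transfection, total RNA was taken 24 hours later in both, and 500 ng was labelled and hybridised to Affymetrix Human Gene 1.0 ST arrays. HEK293T is a line of human embryonic kidney origin that makes the large T antigen of SV40. The transfection was transient, the inserted gene was the pig one, and no untransfected cells were analysed here. The labels call the replicates biological but do not say whether they were separate cultures, so p-values measure the spread between these arrays, which may be partly technical. Values are log2 signals after RMA, an array summary that equalises the arrays, and all differences are VRTN minus empty vector on that log2 scale.

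The ER folds secreted and membrane proteins with the help of Hsp70-type and Hsp90-type chaperones, lectin chaperones and enzymes that form disulfide bonds, and it sends failed proteins back to the cytosol for degradation. When unfolded proteins build up, the sensors IRE1 (gene ERN1), ATF6 and PERK (gene EIF2AK3) are released from HSPA5 and start the unfolded protein response. ATF6 and spliced XBP1 switch on chaperone and degradation genes, and PERK phosphorylates the translation factor eIF2α, which raises ATF4 and through it DDIT3, TRIB3 and CHAC1. A forced load of a secreted protein is a classic trigger in cultured cells, whereas cytosolic folding trouble acts through the heat shock genes.

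None of the 31 measured genes passed the test, which was limma across 29183 probe sets with Benjamini-Hochberg adjustment and a threshold of 0.05. The lowest adjusted p among them was 0.741 in limma, for DDIT3. Over the array, 0.0137% of probe sets passed, which is 4 probe sets. With the replicate number as a block the limma fit called 0 of the 31 as well, with 0.0274% of probe sets called and a lowest adjusted p of 0.296, for XBP1. At an unadjusted p under 0.05 in limma, 1 of the 31 was higher with VRTN (DDIT3, 3.23% of the genes, against 2.65% of all probe sets) and 3 were lower (XBP1, ATF6 and EDEM2, 9.68%, against 2.92%). The blocked fit gave the same counts of 1 and 3, where 5.31% of all probe sets were higher and 6.19% were lower. The count of 3 was 1 when VRTN array 2 or empty vector array 2 was left out and 0 when VRTN array 3 was. In total RNA from a whole culture, a change in some of the cells and a smaller change in every cell cannot be told apart.

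The intervals were narrow for most of the genes. In 30 of the 31 the 95% interval of the difference lay inside a 1.5-fold change in either direction, as it did for 95.5% of all probe sets. CHAC1 was the exception, with an SE of 0.34 in this fit and of 0.14 with the replicate block. The differences were positive for 14 genes and negative for 17, with a median of -0.0090, against a median of -0.0049 and 52.0% negative over all probe sets. The 5th and 95th percentiles of all probe sets were -0.19 and 0.18, and 4 of the 31 genes lay outside them, the same 4 that had an unadjusted p under 0.05. All 3 VRTN arrays lay above all 3 empty vector arrays for 1 gene (DDIT3, against 5.39% of all probe sets) and below them for 2 (XBP1 and EDEM2, against 5.92%), and the groups overlapped for the other 28.

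**Figure D1:**
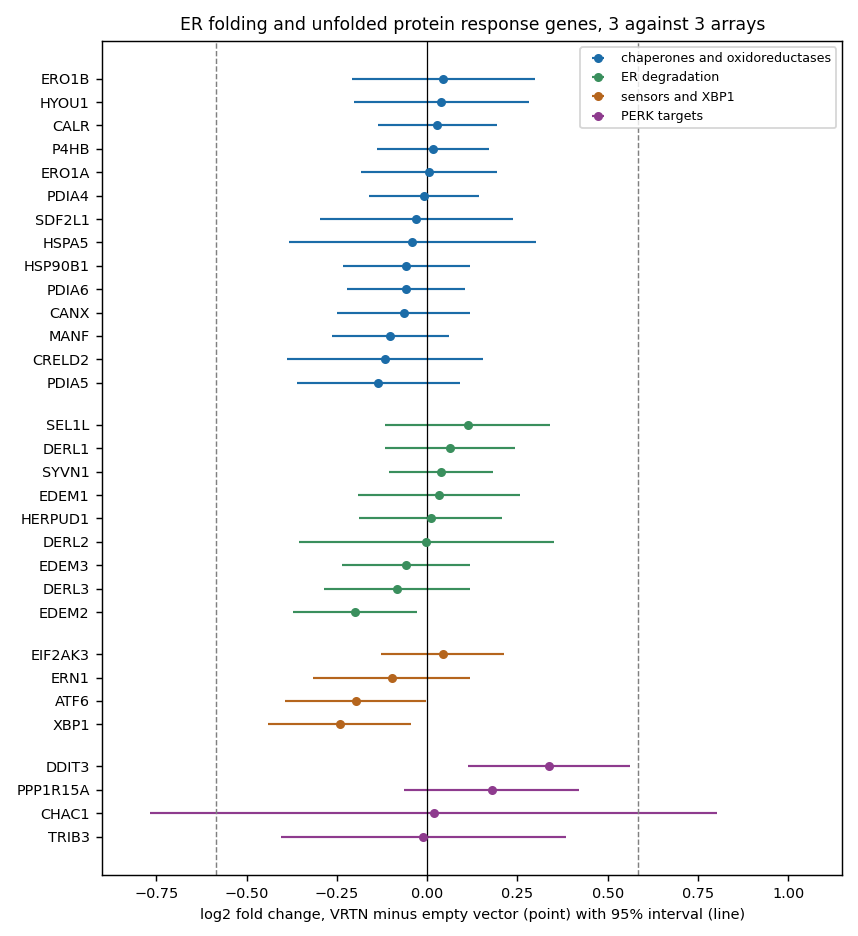
Difference between VRTN and empty vector on the log2 scale (x axis) for the 31 measured genes (y axis), grouped by role. Points are the differences of 3 against 3 arrays, lines their 95% intervals from limma, and dashed lines a 1.5-fold change. The intervals of DDIT3, XBP1, ATF6 and EDEM2 leave out 0, and only that of CHAC1 crosses the dashed lines.

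The array facts that bear on these values are few. The median signal of the tested probe sets was 6.45 to 6.47 in VRTN arrays and 6.43 to 6.47 in empty vector arrays, and all 31 genes lay above the negative control median of their array in all 6 arrays. That median is not a detection limit. It rose with the replicate number in both groups, from 5.59 to 6.06 in VRTN arrays and from 5.36 to 6.13 in empty vector arrays. The part of this rise in the results below was not tested. The human VRTN probe set read 6.25, 6.22 and 6.07 in VRTN arrays, against 5.19, 4.98 and 5.14 in empty vector arrays, a difference of 1.07 (SE 0.086, limma adjusted p 0.0194). This probe set lay above the negative control median only in the 3 VRTN arrays, where that median was 5.59, 5.90 and 6.06. In VRTN array 3 it thus lay barely above it. It was designed on the human gene, so it reads the pig transcript only as far as their sequences match. The call was lost on leaving out any single VRTN array, or the empty vector array numbered 2 or 3 (limma adjusted p 0.0527 to 0.264), while the difference stayed between 1.01 and 1.13. Of 7 genes that mark HEK293-type cells, 5 lay above the negative control median in all 6 arrays, with a mean over the list of 7.72 to 7.78 in VRTN arrays and 7.78 to 7.86 in empty vector arrays. All VRTN arrays lay below all empty vector arrays for 3 of the 7 (NEFL, NEFM and LIN28B), against 5.92% of all probe sets. Of these, NEFM lay above the negative control median in only 1 of the 6 arrays. LIN28B differed by -0.22 (limma unadjusted p 0.0227, adjusted p 0.841), and the part of these marker differences in the results below was not tested. Of 16 measured markers of other cell types, 3 (COL1A1, COL3A1 and APOA1) lay above it and 10 below it in all 6 arrays, with a mean of 5.06 to 5.09 in VRTN arrays and 4.98 to 5.12 in empty vector arrays. The 9 hybridisation spike controls, which are added after labelling, were 0.35 higher in VRTN arrays, a difference whose part in the results below was not tested.

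A feature that many of the folding genes share is the ER stress element in their promoters, the site through which ATF6 and spliced XBP1 act together with NF-Y. The sequences are shown because 11 of the genes whose levels follow hold the element, while other known ATF6 or XBP1 targets among them, such as EDEM1 and PDIA4, do not hold these letters in the window searched. RefSeq promoters of GRCh38.p14, 300 bases long with 250 before and 50 after the annotated start, were found for 29 of the 32 genes (38 promoters, since some genes have several starts). DERL1, DERL3 and PDIA3 had none in the table. The element was searched as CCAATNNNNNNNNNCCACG on both strands, and its second form as ATTGGNCCACG on both strands. Capitals mark the fixed letters of the match, and a match on the opposite strand reads as the reverse complement. The BiP gene HSPA5 is shown with its whole 250 bases before the start, chr9:125241344-125241593 on the minus strand, where the match began 66 bases before the start.
HSPA5: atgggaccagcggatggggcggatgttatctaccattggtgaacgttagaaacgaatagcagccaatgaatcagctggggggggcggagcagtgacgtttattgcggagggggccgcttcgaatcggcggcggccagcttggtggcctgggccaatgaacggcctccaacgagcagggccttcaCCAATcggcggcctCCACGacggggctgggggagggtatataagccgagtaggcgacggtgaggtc

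The other matches to the first form are given with the flanking bases, so that the spacing between the 2 fixed blocks can be compared. XBP1 is at chr22:28800588-28800636 (minus strand), PDIA6 at chr2:10812838-10812886 (minus), HSP90B1 at chr12:103930201-103930249 and chr12:103930306-103930354 (plus), CALR at chr19:12938369-12938417 (plus), CRELD2 at chr22:49918539-49918587 (plus) and ERO1B at chr1:236282168-236282208 (minus). CANX also held the first form.
XBP1: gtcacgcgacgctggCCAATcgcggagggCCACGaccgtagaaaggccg
PDIA6: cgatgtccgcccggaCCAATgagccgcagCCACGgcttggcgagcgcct
HSP90B1, far match: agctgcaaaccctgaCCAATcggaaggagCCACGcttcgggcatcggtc
HSP90B1, near match: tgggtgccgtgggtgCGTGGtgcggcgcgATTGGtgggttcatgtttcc
CALR: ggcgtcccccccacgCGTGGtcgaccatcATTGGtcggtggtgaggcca
CRELD2: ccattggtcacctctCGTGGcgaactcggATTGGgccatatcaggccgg
ERO1B: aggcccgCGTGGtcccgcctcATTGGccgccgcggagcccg

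The second form, in which the 2 blocks almost touch, was found in 3 genes. They are HYOU1 at chr11:119057365-119057405 and chr11:119057259-119057299 (minus strand), HERPUD1 at chr16:56932010-56932050 (plus) and SDF2L1 at chr22:21642099-21642139 (plus).
HYOU1, far match: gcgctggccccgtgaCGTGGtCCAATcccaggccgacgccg
HYOU1, near match: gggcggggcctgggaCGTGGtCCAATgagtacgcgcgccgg
HERPUD1: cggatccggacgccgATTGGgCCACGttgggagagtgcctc
SDF2L1: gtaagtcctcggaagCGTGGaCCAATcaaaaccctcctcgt

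The first form was present in 27 of all 35116 promoters (0.0769%), and 10 of those 27 belonged to 8 of the genes described here. The second form was present in 19 promoters (0.0541%), 3 of them of these genes. The XBP1 site core TGACGTG, on both strands, was in 1.97% of all promoters and among these genes only in HYOU1, where it overlaps the far match above. The short TGATG, the core of the amino acid response element searched on both strands, was in 32.9% of all promoters and in 8 of the 29 genes. The 11 genes with an element of either form had a median difference of -0.041, with a range of -0.24 to 0.045, and XBP1 alone among them had an unadjusted p under 0.05. The 18 genes with a promoter and neither form had a median of 0.00097 and a range of -0.20 to 0.34, with 3 such genes. A match to these letters is a description and no evidence of binding.

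**Figure D2:**
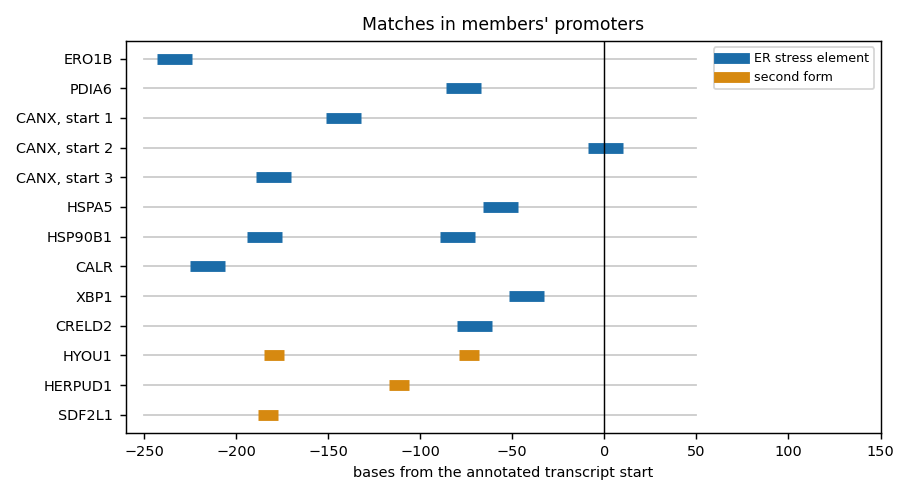
Matches to the ER stress element (blue) and its second form (orange) in the promoters of the genes that hold one, by distance in bases from the annotated transcript start (x axis). Grey lines span the 300 bases searched, 1 per promoter, and the positions of the first form range from ERO1B, 243 bases before the start, to a second CANX start that the match crosses.

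Among the chaperones and oxidoreductases, the main ATF6 and XBP1 targets, no gene passed the test. Of the 15 listed, 14 were measured, 5 had positive and 9 negative differences, and the median was -0.036 with a range of -0.14 (PDIA5) to 0.045 (ERO1B). That median was -0.0065 when VRTN array 1 was left out, -0.016 when VRTN array 3 was, -0.0090 after a further quantile normalisation and -0.00086 with array weights. None had an unadjusted p under 0.05, in the fit without or with the block, and all 14 intervals lay inside 1.5-fold. HSPA5 encodes BiP, the main Hsp70 of the ER and the usual marker of an active unfolded protein response. It read 10.84, 11.09 and 11.28 in VRTN arrays, against 10.85, 11.16 and 11.31 in empty vector arrays. Arrays of the same replicate number lay within 0.0088 to 0.075 of each other, while the range within a group was 0.44 in VRTN arrays and 0.47 in empty vector arrays. The difference was -0.041 (SE 0.15, limma adjusted p 0.997). Its 95% interval, -0.38 to 0.30, corresponds to 0.766-fold to 1.23-fold. Both come from the fit without the block. With the replicate block the SE of HSPA5 was 0.056 (limma adjusted p 0.819).

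CALR encodes calreticulin, the soluble lectin chaperone that binds glucose-trimmed glycoproteins and calcium. It read 11.27, 11.22 and 11.13 in VRTN arrays, against 11.23, 11.18 and 11.12 in empty vector arrays, and the groups overlapped. Its difference was 0.028 (SE 0.071, limma adjusted p 0.995). Its membrane-bound relative CANX, calnexin, differed by -0.065, and HSP90B1, the ER Hsp90 known as GRP94, by -0.058, each with overlapping groups. HYOU1, which exchanges the nucleotide of BiP, differed by 0.039, and SDF2L1, a partner of BiP and its J-proteins, by -0.030.

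The disulfide enzymes spanned a similar width. P4HB, the founding protein disulfide isomerase, differed by 0.015 on its brighter probe set and by -0.022 on its other one. PDIA4 differed by -0.0090, PDIA5 by -0.14 and PDIA6 by -0.059. The 2 probe sets shared by PDIA3 and PDIA3P1 differed by 0.0067 and 0.0079, and gene and pseudogene cannot be separated on them. The oxidases ERO1A and ERO1B, which pass electrons from protein disulfide isomerases to oxygen, differed by 0.0046 and 0.045. MANF, a secreted factor that also binds BiP, differed by -0.10, and CRELD2, a disulfide enzyme induced by ER stress, by -0.12. Both were lower with VRTN in each same-numbered pair, and neither passed the test. They were among 6 of the 14 measured genes of this class that were lower in all 3 pairs, while 3 were higher in all 3. Of all 31 genes, 10 were lower and 5 higher in all 3 pairs. The share over all probe sets was not computed.

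**Figure D3:**
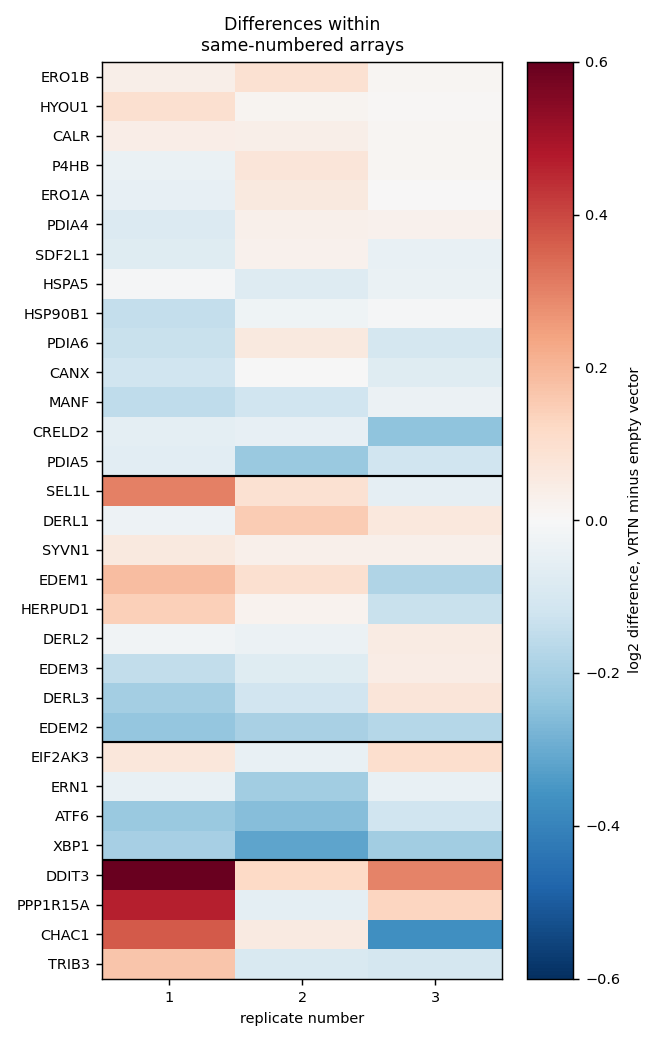
Difference between the VRTN and the empty vector array of the same replicate number (columns) for each of the 31 genes (rows), on the log2 scale as colour. DDIT3 is among 5 genes that are positive in all 3 pairs, and XBP1, ATF6 and EDEM2 are among 10 that are negative in all 3. CHAC1 is 0.37 in pair 1 and -0.37 in pair 3.

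Of the cytosolic chaperone genes DNAJB1, HSPA8 and HSPA1A, set beside HSPA5, DNAJB1 passed the test. DNAJB1, a cytosolic Hsp40 and heat shock gene, read 9.94, 9.83 and 10.21 in VRTN arrays, against 8.61, 8.37 and 8.38 in empty vector arrays. It rose by 1.54 (SE 0.12, 95% interval 1.27 to 1.81, limma adjusted p 0.0182), and its groups were far apart. The interval did not reach that of HSPA5, but the difference between both changes was not tested. The call was lost when VRTN array 1 or 2, or empty vector array 2 or 3, was left out, with limma adjusted p of 0.0715 to 0.189, while the difference stayed between 1.43 and 1.62. The calls of DNAJB1 and of VRTN were also lost when any replicate number was left out of both groups, with limma adjusted p from 0.0731 upwards. HSPA8, the constitutive cytosolic Hsp70, differed by 0.23 (SE 0.077) with a limma adjusted p of 0.819. Its 95% interval, 0.050 to 0.41, overlapped that of HSPA5, -0.38 to 0.30. HSPA1A had 5 probe sets, all shared with its near-identical copy HSPA1B, which differed by 0.21 to 0.30, and none passed. Their intervals, all within 0.011 to 0.47, overlapped that of HSPA5 as well. All these intervals come from the fit without the block, and the overlaps hold for that fit only. With the replicate block the SE was 0.056 for HSPA5, 0.057 for HSPA8 and 0.058 to 0.061 for the HSPA1A probe sets. The intervals of the blocked fit were not compared. The ER J-protein DNAJB11, named here after its values were seen, differed by 0.066 (SE 0.11).

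The ER degradation genes were spread around 0. The 9 genes, which recognise, pull out and ubiquitinate failed ER proteins, had 5 positive and 4 negative differences and a median of 0.010. Leaving out VRTN array 2 turned that median to -0.026, leaving out VRTN array 3 gave 0.051, and dropping number 3 from both groups gave 0.044, so its sign rested on single arrays. EDEM2, the mannosidase that starts the trimming of glycans on failed glycoproteins, read 7.88, 7.79 and 7.78 in VRTN arrays, against 8.11, 7.98 and 7.95 in empty vector arrays. All VRTN arrays lay below all empty vector arrays. The difference was -0.20 (SE 0.074, 95% interval -0.37 to -0.027, limma unadjusted p 0.0286, adjusted p 0.853), which did not pass. The unadjusted p was 0.0845 when VRTN array 2 was left out, 0.0807 when VRTN array 3 was, and 0.0917 when empty vector array 1 was. Leaving out number 1, 2 or 3 in both groups gave an unadjusted limma p of 0.0570, 0.128 and 0.0684. In the other direction, it was 0.0117 with the replicate block and 0.0109 with array weights. EDEM2 did not pass the adjusted threshold in either fit.

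Its relatives had smaller differences. EDEM1, an XBP1 target, read 7.69, 7.83 and 7.60 in VRTN arrays, against 7.51, 7.73 and 7.78 in empty vector arrays, a difference of 0.033 (SE 0.097) with overlapping groups. EDEM3 differed by -0.059. HERPUD1, a membrane scaffold of the ubiquitin ligase complex and a sensitive ER stress gene, read 8.87, 8.95 and 8.82 in VRTN arrays, against 8.72, 8.93 and 8.96 in empty vector arrays. Its difference was 0.010 (SE 0.085), higher in pair 1 and lower in pair 3. The ligase SYVN1 (HRD1) differed by 0.039 with the narrowest interval of these genes (SE 0.062), and its adaptor SEL1L by 0.11, with 0.30 in pair 1 and -0.053 in pair 3. The derlins, membrane proteins that help move substrates out of the ER, differed by 0.063 (DERL1), -0.0026 (DERL2) and -0.083 (DERL3).

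The sensors and XBP1 had the lowest median of the 4 classes, -0.15, with 3 of 4 negative, and none passed the test. XBP1 encodes the transcription factor whose mRNA IRE1 splices. It read 9.40, 9.38 and 9.25 in VRTN arrays, against 9.60, 9.70 and 9.46 in empty vector arrays. All VRTN arrays lay below all empty vector arrays. The difference was -0.24 (SE 0.085, 95% interval -0.44 to -0.046), or 0.845-fold, with a limma unadjusted p of 0.0218 and an adjusted p of 0.830. Its unadjusted p was 0.0753 when VRTN array 3 was left out and 0.0805 when empty vector array 2 was. Leaving out number 1, 2 or 3 in both groups gave an unadjusted limma p of 0.0493, 0.124 and 0.0274. With the replicate block it was 0.00617 and with array weights 0.00795. XBP1 did not pass the adjusted threshold in either fit. The probe set gives 1 value for XBP1 mRNA and does not separate its spliced from its unspliced form.

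ATF6, the membrane sensor that is cut in the Golgi to release a transcription factor, read 9.33, 9.27 and 9.20 in VRTN arrays, against 9.55, 9.52 and 9.32 in empty vector arrays. VRTN replicate 1 lay just above empty vector replicate 3, and the other arrays of the groups were apart. The difference was -0.20 (SE 0.084, 95% interval -0.39 to -0.0030), with a limma unadjusted p of 0.0474 and an adjusted p of 0.886. The unadjusted limma p was 0.0159 with the replicate block and 0.0158 with array weights. ATF6 did not pass the adjusted threshold in either fit. A further quantile normalisation gave an unadjusted p of 0.0825 in limma, no moderation gave 0.0731, leaving out number 1 in both groups gave 0.106 and number 2 gave 0.224, and dropping VRTN array 2 or 3, or empty vector array 1 or 2, gave 0.0980 to 0.135. ERN1, the kinase and nuclease IRE1, differed by -0.099 and was lower with VRTN in each pair, and EIF2AK3, the kinase PERK, differed by 0.042 with overlapping groups. These are mRNA levels, and the cleavage or phosphorylation that activates the sensors was not measured.

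**Figure D4:**
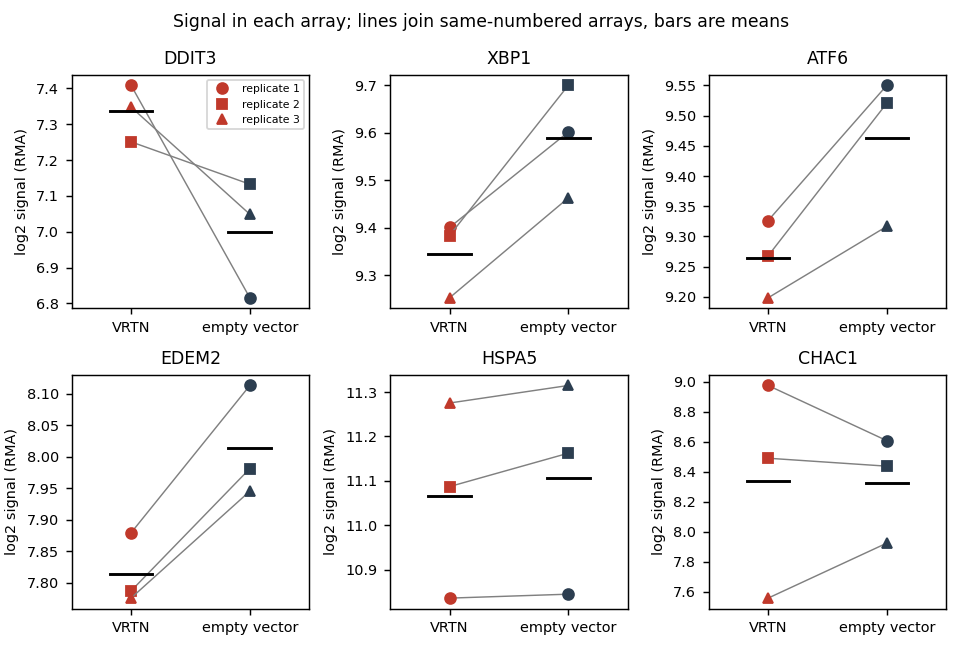
Log2 signal of single genes in each array (points), with VRTN arrays left of empty vector arrays in every panel the replicate number as the marker, lines joining arrays of the same number and bars at the group means. DDIT3 sits higher and XBP1 and EDEM2 lower in all VRTN arrays, while HSPA5 arrays of the same number lie at nearly the same height in both groups.

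Among the PERK targets, 3 of 4 differences were positive and none passed the test. DDIT3 encodes CHOP, the transcription factor induced by ATF4 in prolonged stress. It read 7.41, 7.25 and 7.35 in VRTN arrays, against 6.82, 7.13 and 7.05 in empty vector arrays. All VRTN arrays lay above all empty vector arrays, by 0.59, 0.12 and 0.30 in the same-numbered pairs. The difference was 0.34 (SE 0.097, 95% interval 0.11 to 0.56), or 1.26-fold, with a limma unadjusted p of 0.00868 and an adjusted p of 0.741. It did not pass the test, and its unadjusted p was 0.00635 to 0.0302 when each array was left out in turn. Without number 1 in both groups the difference was 0.21, with an unadjusted limma p of 0.0484. Without number 2 it was 0.45 and without number 3 it was 0.36. Array weights gave 0.23, with an unadjusted limma p of 0.0215.

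The groups overlapped for the other targets of the same branch. PPP1R15A, also called GADD34, directs a phosphatase back to eIF2α. It differed by 0.18 (SE 0.10), with 0.47, -0.060 and 0.13 in the 3 pairs. TRIB3, a pseudokinase induced by ATF4 and CHOP, read 7.49, 7.10 and 6.84 in VRTN arrays, against 7.33, 7.19 and 6.94 in empty vector arrays, a difference of -0.011 (SE 0.17). Its range within a group, 0.66 in VRTN arrays and 0.39 in empty vector arrays, was far wider than the difference. CHAC1, which degrades glutathione, read 8.98, 8.49 and 7.56 in VRTN arrays, against 8.61, 8.44 and 7.92 in empty vector arrays, and it is shown because its spread was the widest, a choice made after its values were seen. Its difference was 0.018 (SE 0.34, 95% interval -0.77 to 0.80), and this interval includes a 1.5-fold change in either direction. That holds for the fit without the block, and with the replicate block the SE of CHAC1 was 0.14. The median of the 4 targets was 0.098, with 0.42 in pair 1, -0.0034 in pair 2 and 0.012 in pair 3, and it rested on single arrays. It was -0.048 when VRTN array 1 was left out, 0.28 when VRTN array 3 was, 0.17 when empty vector array 2 was and 0.020 when empty vector array 3 was.

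Genes around these pathways were taken from 5 further lists with 145 genes, of which 139 were measured, and none passed the test. At an unadjusted p under 0.05 in limma, 2 were higher and 5 lower, and with the replicate block 6 were higher and 10 lower. These counts are 1.44% and 3.60% of the 139 genes without the block, and 4.32% and 7.19% with it, each to be read against the shares of all probe sets given above. The other folding enzymes (34 measured) had a median of -0.0024. The ER J-protein DNAJB9 differed by 0.11, the pancreatic isomerase PDIA2 by 0.13, the glucosidase MOGS by -0.19 (unadjusted p 0.0475, adjusted p 0.886 in limma) and the J-protein DNAJC1 by -0.15. The translocation and targeting genes (24 measured) had a median of -0.0026. Among them TRAM2, a protein next to the translocon, differed by 0.21, the signal recognition particle subunit SRP19 by 0.095, the translocon-associated SSR4 by -0.12 and the receptor subunit SRPRB by -0.12.

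The other degradation factors (31 measured) had a median of -0.014, with the J-protein DNAJB14 at 0.097, the ubiquitin ligase RNF185 at 0.21, the conjugating enzyme UBE2G2 at -0.13 and the membrane protein ERLIN1 at -0.10. The other transducers (23 measured) had a median of 7.57e-05. EIF2AK2, the kinase PKR that senses double-stranded RNA and phosphorylates eIF2α as PERK does, differed by 0.24 (SE 0.069, unadjusted p 0.00893, adjusted p 0.743 in limma). CREB3L3, an ER-bound transcription factor of the liver, differed by 0.19, its relative CREB3L2 by -0.095, and EIF2S1, which encodes eIF2α itself, by -0.082.

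The 27 other targets of the integrated stress response, the ATF4 programme that PERK shares with other eIF2α kinases, had 6 positive and 21 negative differences (77.8% negative, against 52.0% of all probe sets) and a median of -0.068. The list was chosen with earlier results of these data known, so its shares are a description. All probe sets include 7971 without a gene symbol. None passed the test, and 4 were lower at an unadjusted limma p under 0.05, 14.8% of the list, against 2.92% of all probe sets. With the replicate block 7 were lower (25.9%, against 6.19%) and 1 was higher (3.70%, against 5.31%), and the lowest adjusted p in that limma fit was 0.168. ALDH1L2, a mitochondrial folate enzyme, read 7.36, 7.73 and 7.83 in VRTN arrays, against 8.07, 8.34 and 8.25 in empty vector arrays. Its difference was -0.58 (SE 0.13, limma adjusted p 0.604), with all VRTN arrays below all empty vector arrays. GADD45A, a growth arrest gene, differed by -0.37 (SE 0.10) in the same way. CTH, of the cysteine pathway, differed by -0.38, and the cystine transporter SLC7A11 by -0.64 (SE 0.26). Both make up, with ALDH1L2 and GADD45A, the 4 lower genes and are named after their values were seen. On the other side VEGFA, a growth factor, differed by 0.21 and the transcription factor CEBPB by 0.074. The difference of DDIT3, which the same programme induces, was positive where those of 21 of the 27 other targets were negative, and the difference between DDIT3 and these targets was not tested.

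**Figure D5:**
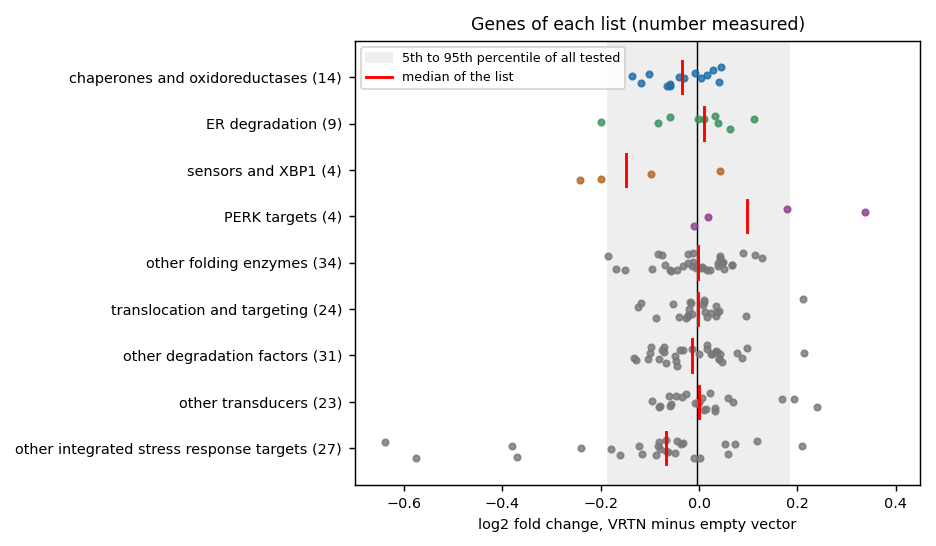
Difference between VRTN and empty vector on the log2 scale (x axis) for every measured gene of the 4 classes and the 5 further lists (rows, with the number measured). Red lines are medians and the grey band runs from the 5th to the 95th percentile of all tested probe sets, -0.19 to 0.18; the medians lie inside it, and the integrated stress response targets reach furthest left.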

How the data were processed

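The authors deposited log2 signals of Affymetrix Human Gene 1.0 ST arrays, summarised by RMA at default settings, per the file headers. The program, per the submitters' processing notes, was Affymetrix Expression Console 1.0. A genome build is not given in the sources used here. Since RMA equalises the arrays, a change common to most transcripts is removed. The number of arrays, 3 per group, limits the precision.

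Of 33297 probe sets, 4114 controls were left out and 29183 were tested without a filter. Genes were named from the platform annotation only where a probe set had 1 symbol (19460 probe sets), with symbols updated from RefSeq GRCh38.p14, and the brightest probe set stood for a gene. The comparison used limma 3.58.1 under R 4.3.3 (lmFit and eBayes, two-sided, Benjamini-Hochberg over all tested probe sets, threshold 0.05). The fit was also run on simulated arrays with independent noise, which lack the correlation of same-numbered arrays given below. No result here rests on that run. Tables were read with Python 3.11.15, pandas 2.3.3 and numpy 2.4.6, and matplotlib 3.10.9 drew the plots. Promoter sequences came from RefSeq.

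The members and lists were chosen with earlier results of these data known. Values of every array are given for members with an unadjusted p under 0.05 and for HSPA5, CALR, XBP1, ATF6, EDEM1, HERPUD1, DDIT3 and TRIB3, and up to 2 genes per direction are named from each further list by smallest p.

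Deviations of same-numbered arrays from their group means correlated across probe sets (0.535, 0.157 and 0.499). The sample titles do not say that same-numbered arrays were paired, so the replicate block was fitted as an alternative. The limma fit without the block gave the calls. Its SE, intervals and p-values are printed unless another setting is named. Where same-numbered arrays vary together, those SE and intervals include that shared spread, which the block takes out. The alternatives were the second deposited table (0 values differed), array weights, averaged probe sets, quantile normalisation, the replicate block, median centring, a robust and trended prior, no moderation, removal of the dimmest 40% of probe sets and omission of each array in turn. Leaving out a number in both groups was added after the data were seen.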

Additional observations from a re-analysis of the deposited data

Results flagged for a closer look

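The 9 hybridisation spike controls, foreign transcripts added to the labelled sample before hybridisation and used in none of the comparisons, were higher in VRTN arrays. They averaged 10.60 ± 0.10 in VRTN arrays and 10.24 ± 0.19 in empty vector arrays (SD, n = 3 each), a difference of 0.35 on the log2 scale. The exact permutation p was 0.1, two-sided, which is the smallest that 3 against 3 arrays allow. The 4 poly(A) spikes, added to the RNA before labelling, averaged 9.73 ± 0.068 in VRTN arrays and 9.78 ± 0.12 in empty vector arrays (SD, n = 3 each, exact permutation p 0.7). The median signal of tested probe sets lay between 6.43 and 6.47 in all 6 arrays. The part of the spike difference in the gene results was not tested.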

How the results depend on the processing

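Under 18 alternatives, 0 of the 31 genes passed the adjusted threshold, and 17 kept their sign throughout. The replicate block called 0 of them too and changed no call of a named gene. It moved the calls over all probe sets to 8, against 4 without it. The unadjusted counts of the further lists moved to 6 higher and 10 lower, against 2 and 5. The median SE of the 31 genes was 0.060 with the block and 0.085 without. The count of genes lower at an unadjusted p under 0.05, 3 as reported, was 0 to 3 when each array was left out (0 when VRTN array 3 and 1 when VRTN array 2 or empty vector array 2 was dropped), 1 without number 1, 0 without number 2 and 2 without number 3 in both groups. The count of higher genes was 1 to 2. The ER degradation median ranged from -0.026 to 0.051 without single arrays and was 0.044 without number 3. The ranges without single arrays were -0.041 to -0.0065 for the chaperone and oxidoreductase median, -0.17 to -0.13 for the sensors and XBP1 and -0.048 to 0.28 for the PERK targets, whose median was -0.032 without number 1 in both groups. Quantile normalisation turned HSPA5 to 0.0035, PDIA4 to 0.028 and DERL2 to 0.031, array weights turned PDIA4 to 0.019 and DERL2 to 0.0054, median centring turned ERO1A to -0.00074, and averaged probe sets turned P4HB to -0.0034. Without number 1 in both groups, PDIA4 was 0.028, EDEM1 -0.043, HERPUD1 -0.057, DERL2 0.0070 and CHAC1 -0.16. Without number 2, P4HB was -0.013, ERO1A -0.022, DERL2 0.014 and TRIB3 0.031, and without number 3 TRIB3 was 0.036. With single arrays left out, the ranges that crossed 0 were -0.17 to 0.074 for HSPA5, -0.0049 to 0.066 for CALR, -0.034 to 0.014 for PDIA4, -0.0078 to 0.044 for P4HB, -0.041 to 0.061 for ERO1A, -0.042 to 0.14 for ERO1B, -0.033 to 0.13 for HYOU1, -0.11 to 0.070 for SDF2L1, -0.20 to 0.0055 for CRELD2, -0.050 to 0.087 for EDEM1, -0.065 to 0.054 for HERPUD1, -0.14 to 0.11 for DERL2, -0.19 to 0.14 for TRIB3, -0.30 to 0.41 for CHAC1 and -0.024 to 0.13 for CEBPB. The cause of these turns was not tested. Calls of VRTN and DNAJB1 were lost without moderation (adjusted p 0.554 in ordinary least squares) and without number 1, 2 or 3 in both groups (limma adjusted p 0.0731, 0.979 and 0.232 for DNAJB1, 0.114, 1.00 and 0.232 for VRTN).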

Other observations

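Beyond the genes described above, 25 other measured genes held an ER stress element of either form in a promoter. Their median difference was -0.022, with a range of -0.17 to 0.28. NUCB1, a calcium-binding protein of the Golgi, was the only one with an unadjusted p under 0.05 in limma. It read 10.18, 9.97 and 9.96 in VRTN arrays, against 9.81, 9.71 and 9.77 in empty vector arrays. Its difference was 0.28 (SE 0.082), and it did not pass the adjusted threshold. FICD, which modifies BiP, differed by 0.079 (SE 0.13), and SERP1, a stress-associated ER membrane protein, by -0.061 (SE 0.067).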
